A study of Mus musculus with 74 samples.

Results

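Acetylation of histone H3 at lysine 27 (H3K27ac), a chromatin mark of active promoters and enhancers, was mapped by ChIP-seq in whole livers of *Ncor* LKO mice, which lack the nuclear receptor corepressor NCOR (gene symbol *Ncor1*) in the liver, and of WT mice of the same line. The comparison rests on 3 WT and 3 LKO libraries, 6 of the 74 libraries of the series, and on the table of H3K27ac peaks that the authors made jointly for the *Ncor* and *Smrt* lines. Of its 68818 peaks, 68817 held at least 1 tag, that is, 1 mapped read, in these 6 libraries, and all of those were tested. All mice were C57BL/6, 8 to 12 weeks of age and on normal chow. The 3 WT and 3 LKO libraries of the *Smrt* line, which lacks the related corepressor SMRT in the liver, served for a comparison of the responses. The labels name the genotypes only as WT and LKO, and the Cre driver of the *Ncor* line is not given in the sources used here, so cells that escaped deletion cannot be counted. The study describes the libraries as biological triplicates made from several pooled precipitations, but the labels do not say which livers entered which library, and p-values measure the spread between libraries.

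NCOR is a scaffold that binds nuclear receptors without an activating ligand and, together with SMRT, GPS2, TBL1 (*Tbl1x*), TBLR1 (*Tbl1xr1*) and the histone deacetylase HDAC3, removes acetyl groups from nearby histones. In liver its partners include PPARα, the fatty acid receptor that drives fat burning in fasting, the thyroid hormone receptors, LXRs and REV-ERBs. H3K27ac tags therefore report the balance of acetylation at a promoter, within a short distance of a transcription start site (TSS), or at an enhancer, which can lie far from the gene it serves.

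Sequence at 5 of the sites described here is printed to show the DNA under the peaks: the *Cyp4a14* and *Pdk4* sites are PPARα target genes, the *Tab2* site had the largest fold gain among the selected peaks over 100000 bp from a TSS, and the *Rfx4* and *Atg4a* sites mark the largest gain and the largest loss among the peaks selected for description. Each stretch is the 201 bases around the centre of the PPARα peak with the most tags inside the H3K27ac peak, read 5′ to 3′ on the plus strand of the mouse genome build NCBIM37 (mm9). Capitals mark each nuclear receptor half-site AGGTCA on either strand and the best match, with at most 2 mismatches, to AGGTCANAGGTCA, the direct repeat with a spacer of 1 base that PPARα binds with RXR.
*Cyp4a14* promoter, chr4:115170210-115170410: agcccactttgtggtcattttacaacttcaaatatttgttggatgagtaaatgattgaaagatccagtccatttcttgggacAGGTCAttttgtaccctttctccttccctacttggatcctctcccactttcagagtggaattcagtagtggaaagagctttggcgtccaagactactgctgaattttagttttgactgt
*Pdk4* intron 10, chr6:5435175-5435375: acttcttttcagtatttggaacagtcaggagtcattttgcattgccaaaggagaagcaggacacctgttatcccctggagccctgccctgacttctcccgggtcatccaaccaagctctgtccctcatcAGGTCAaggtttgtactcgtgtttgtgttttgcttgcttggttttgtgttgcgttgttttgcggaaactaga
*Tab2* upstream, chr10:7807087-7807287: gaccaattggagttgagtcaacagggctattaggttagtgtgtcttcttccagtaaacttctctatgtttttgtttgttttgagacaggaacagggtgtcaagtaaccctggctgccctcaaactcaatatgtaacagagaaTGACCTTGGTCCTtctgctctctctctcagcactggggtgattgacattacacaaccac
*Rfx4* intron 1, chr10:84220278-84220478: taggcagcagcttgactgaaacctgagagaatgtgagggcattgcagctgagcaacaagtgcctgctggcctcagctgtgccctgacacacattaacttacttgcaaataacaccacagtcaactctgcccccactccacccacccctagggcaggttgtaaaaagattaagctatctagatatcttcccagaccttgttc
*Atg4a* intron 9, chrX:137587148-137587348: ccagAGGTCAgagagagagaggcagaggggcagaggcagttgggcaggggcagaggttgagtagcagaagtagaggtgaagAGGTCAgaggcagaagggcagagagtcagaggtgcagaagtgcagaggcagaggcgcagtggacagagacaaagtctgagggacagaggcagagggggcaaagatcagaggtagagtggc
The *Tab2* stretch held a match on the minus strand with 2 mismatches, AGGACCAAGGTCA. The *Cyp4a14* and *Pdk4* stretches each held 1 half-site, the *Atg4a* stretch held 2, and the *Rfx4* stretch held neither the half-site nor the repeat.

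The 6 libraries held 28008947 to 34375554 tags each in the peaks, which was 73.9% to 77.7% of their uniquely mapped tags. Averaged over peaks, no pair of libraries of the same group agreed within sampling noise. Levels are given throughout as normalized tags, that is, tags per 10000000 of a library's mapped tags, in the order of replicates 1, 2 and 3. LKO 1 stood apart from the other 5: the mean Pearson correlation of its peak levels with the 6 *Smrt*-line libraries was 0.939, against 0.911 to 0.920 for the others (a description over 42323 peaks that share libraries). The 6 *Ncor*-line libraries held 264 to 664 tags at the promoters of the Y-linked genes *Ddx3y*, *Uty* and *Eif2s3y* and 12 to 22 at *Xist*, whereas the 6 *Smrt*-line libraries held 0 tags at the former and 918 to 1048 at *Xist*. The first is the pattern of male livers and the second that of female livers. The labels give no sex, and the paper states that its mice were male. H3K27ac does not check the deletion of *Ncor1*: the peaks within 10000 bp of its start held 1348, 1419 and 1132 normalized tags in WT and 1043, 1379 and 1109.8 in LKO (log2 fold change -0.14 ± 0.12, adjusted p = 0.667). Of 17 hepatocyte genes with peaks, such as the albumin gene, 0 passed the test (3 had an unadjusted p below 0.05, and 0 passed in DESeq2). Their summed level was 32319 to 35581 normalized tags in WT and 30882 to 31392 in LKO, so all LKO sums lay below the WT sums. The list median was -0.16 on the log2 scale, against -0.05 over all genes with peaks, and this difference was not tested. Of 57 marker genes of Kupffer cells, stellate cells, endothelial cells, cholangiocytes and lymphocytes with peaks, 0 passed the edgeR test and 2 passed in DESeq2, while 10 had an unadjusted p below 0.05, among them 6 of the 11 lymphocyte genes, 5 of these lower in LKO. Over all 14549 genes with peaks within 10000 bp of the TSS, 1.77% rose, 0.955% fell and 2058 had an unadjusted p below 0.05. DESeq2 called 606 of them higher and 243 lower. Counts of 0 in lists of this size cannot be set apart from that background. The summed level of the lymphocyte genes was 856 to 975 normalized tags in WT and 861 to 988 in LKO, and the groups overlapped. Those of the Kupffer, stellate, endothelial and cholangiocyte genes overlapped as well, and the part of these cells in the results was not tested. In whole liver, fewer cells of a type and less mark per cell cannot be told apart.

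Loss of NCOR was accompanied by gains of H3K27ac more often than by losses. Of the 68817 peaks, 1594 (2.32%) were higher and 551 (0.801%) were lower in LKO at an adjusted p below 0.05 in edgeR's quasi-likelihood test with Benjamini-Hochberg adjustment. The median change was 1.05 on the log2 scale among the peaks that rose and -1.03 among those that fell, and 866 and 295 of them changed at least as much as a log2 fold change of 1 or -1. At every called peak the 3 LKO libraries lay outside the WT range, but so did they at 5728 further peaks above and 5671 below that range that did not pass the test. The counts depended on single libraries: they were 694 and 261 without WT 1, 296 and 101 without WT 2, 445 and 161 without WT 3, 935 and 287 without LKO 3, and 1817 and 743 without LKO 2. Without LKO 1 they were 1578 and 525, of which 1155 and 330 were shared with the calls from all 6 libraries, and all 1594 and all 551 kept their direction.

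The changes lay mostly away from promoters. Of 9712 peaks whose centre was within 1000 bp of a TSS, 48 (0.494%) rose and 51 (0.525%) fell. Gains were more frequent at each greater distance, with 392 of 15792 peaks (2.48%) between 1000 and 10000 bp, 961 of 36138 (2.66%) between 10000 and 100000 bp and 193 of 7175 (2.69%) beyond. Losses covered a narrower range, at 130 (0.823%), 300 (0.83%) and 70 (0.976%) peaks in the same classes. Promoter peaks made up 14.1% of the tested peaks but 3.01% of those that rose and 9.26% of those that fell. Promoter peaks carry more tags than distal ones, and the difference was also present among peaks of like level: with a mean of 200 to 1000 tags, 0.402% of promoter peaks rose against 5.25%, 4.76% and 6.31% in the 3 more distant classes. Without LKO 1, 47 promoter peaks rose and 113 fell, so that promoters held 21.5% of the losses.

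**Figure D1:**
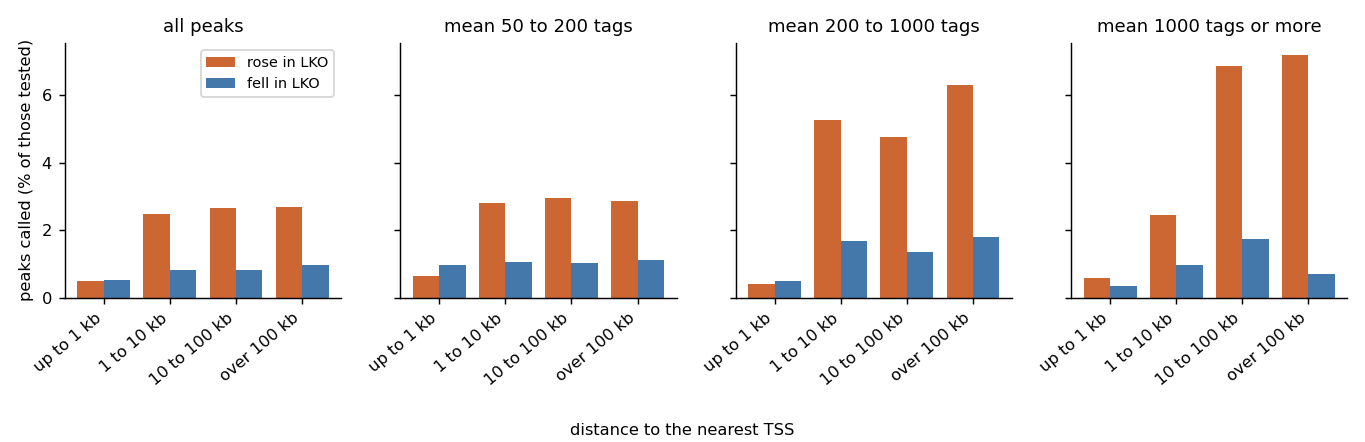
Share of tested H3K27ac peaks that rose or fell in Ncor LKO (y axis, percent) by distance of the peak centre from the nearest TSS (x axis, 4 classes), for all peaks and for peaks of like mean tag count. Gains are least frequent within 1000 bp of a TSS in each panel, at 0.494% of all promoter peaks against 2.48% to 2.69% elsewhere.

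The share of all tags that fell in each distance class did not pass a test. Promoter peaks took 24.3%, 23.6% and 24.3% of all tags in peaks in the WT libraries and 24.4%, 22.3% and 22.1% in the LKO libraries. The mean difference was -1.12 percentage points and the groups overlapped (exact permutation test, two-sided p = 0.4, where 3 against 3 libraries cannot go below 0.1). In the other 3 classes the differences were 0.12, 0.83 and 0.16 percentage points, with exact p of 0.4 to 0.5. By the deposited annotation, 50.3% of the peaks that rose were intronic and 43.4% intergenic, compared with 46.5% and 42.8% of those that fell and 52.5% and 33% of those that did not pass the test. Peaks that rose were a median of 22468.5 bp from the nearest TSS and those that fell 20310 bp. In WT the risen peaks held a median of 35.3 normalized tags and the fallen peaks 64.7.

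Near promoters, the largest gains by the naming rule lay in the first intron of *Acot11*, a fatty acyl-CoA thioesterase, in intron 2 of *Mup18*, one of the major urinary protein genes, and in the first intron of *Mpped2*. The *Acot11* peak, chr4:106470195-106473606, held 73.1, 73.4 and 34.4 normalized tags in WT and 220.2, 132 and 259 in LKO (log2 fold change 1.76 ± 0.30 (SE), adjusted p = 0.0144). All 3 LKO libraries were above all 3 WT libraries, but the call was lost without WT 2 (adjusted p = 0.0543). *Acot11* was the nearest gene of 15 peaks, of which 6 rose. The *Mup18* peak held 94, 44.4 and 40.3 tags in WT and 176, 200.1 and 187 in LKO, and its call was lost without WT 2 (adjusted p = 0.0674). The *Mpped2* peak was lower throughout, at 15.4, 9.35 and 6.26 tags in WT and 28.9, 29 and 35.4 in LKO, and its call was lost without WT 2 (adjusted p = 0.0857) or WT 3 (adjusted p = 0.0501). Large promoter losses lay at *Clec2h*, a C-type lectin gene, and at *Ankrd55*. The *Clec2h* peak in intron 1 fell from 146, 187 and 158 normalized tags in WT to 51.8, 21.7 and 48.6 in LKO (adjusted p = 0.00517), and the log2 fold change over the peaks within 10000 bp of its TSS was -2.03 ± 0.23. The call at *Clec2h* held without any 1 library.

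Between 1000 and 10000 bp from a TSS the largest gain was in intron 1 of *Rfx4*, a transcription factor gene better known from brain and testis. Its peak, chr10:84219681-84222609, was near background in WT with 4.50, 4.32 and 5.14 normalized tags and rose to 107, 28.8 and 50.8 in LKO (log2 fold change 3.73 ± 0.46, adjusted p = 0.00438). It was not alone: of 12 peaks nearest to *Rfx4*, 7 rose, among them one in intron 3 with 7.15, 4.79 and 4.25 tags in WT and 53.8, 26.1 and 38.2 in LKO. In intron 7 of *Pnpla5*, a lipase gene, the level was 29.4, 8.87 and 19.5 normalized tags in WT and 264, 78.6 and 86.3 in LKO. LKO 1 was the highest of the 6 there, and the call was lost without WT 2 (adjusted p = 0.0746) or WT 3 (adjusted p = 0.0766). The largest loss in this class lay 4250 bp upstream of *Rpp40*, a subunit of ribonuclease P, with 21.7, 19.2 and 25.5 normalized tags in WT and 1.36, 3.42 and 2.17 in LKO (log2 fold change -3.26 ± 0.29, adjusted p = 0.00152). In intron 1 of *Asns*, the asparagine synthetase gene, the WT libraries were far apart at 21.5, 61.9 and 149.9 tags against 5.65, 15.9 and 12.4 in LKO, and the call was lost without WT 2 (adjusted p = 0.0932), WT 3 (adjusted p = 0.104), LKO 1 (adjusted p = 0.0969) or LKO 3 (adjusted p = 0.106).

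Farther out, a large gain was seen at a peak 132003 bp upstream of *Tab2*, an adaptor of TAK1 kinase signalling, at chr10:7805145-7810703. It held 54.6, 47.2 and 43.8 normalized tags in WT and 466, 600.0 and 219 in LKO (log2 fold change 3.14 ± 0.31, adjusted p = 0.00235) and all 3 LKO libraries lay far above WT, LKO 3 the lowest of them. Of 17 peaks nearest to *Tab2*, 9 rose and 0 fell. A peak in intron 3 of *Svep1* and a pair of intergenic peaks whose nearest start was that of *Mtrr* rose, with LKO 1 well below LKO 2 and LKO 3 and nearer to WT. At *Svep1* the levels were 5.83, 2.88 and 3.13 tags in WT and 7.69, 44.7 and 59.6 in LKO, and the call was lost without WT 1 (adjusted p = 0.0654), WT 2 (adjusted p = 0.122), WT 3 (adjusted p = 0.115) or LKO 3 (adjusted p = 0.0754). At the peak 270035 bp from *Mtrr* they were 3.44, 2.64 and 2.91 in WT and 9.27, 32 and 33.4 in LKO. That call was lost without WT 2 (adjusted p = 0.0602) or WT 3 (adjusted p = 0.0535). At the peak 274702 bp from *Mtrr* the levels were 4.50, 1.92 and 4.03 in WT and 7.24, 38.1 and 38.4 in LKO. The call there was lost without WT 1 (adjusted p = 0.0698), WT 2 (adjusted p = 0.114), WT 3 (adjusted p = 0.0928) or LKO 3 (adjusted p = 0.073).

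The largest loss of all described peaks lay 95333 bp from the start of *Atg4a*, an autophagy protease gene on the X chromosome, in its intron 9 at chrX:137584157-137589422. This peak fell from 126, 84.4 and 64 normalized tags in WT to 7.46, 6.59 and 9.98 in LKO (log2 fold change -3.50 ± 0.28, adjusted p = 0.00152). A peak assigned to *Usp42*, a ubiquitin protease gene, held 47.9, 56.3 and 47 tags in WT and 2.94, 9.03 and 8.02 in LKO (log2 fold change -2.92 ± 0.30, adjusted p = 0.00277). An intergenic peak whose nearest start, 408991 bp away, was that of *Ppargc1a*, the PPAR coactivator PGC-1α, held 14.8, 21.8 and 23.5 tags in WT and 6.11, 3.90 and 5.64 in LKO. The nearest TSS names a peak and does not show which gene it serves. The calls at *Atg4a*, *Usp42*, *Ppargc1a* and *Tab2* held without any 1 library.

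**Figure D2:**
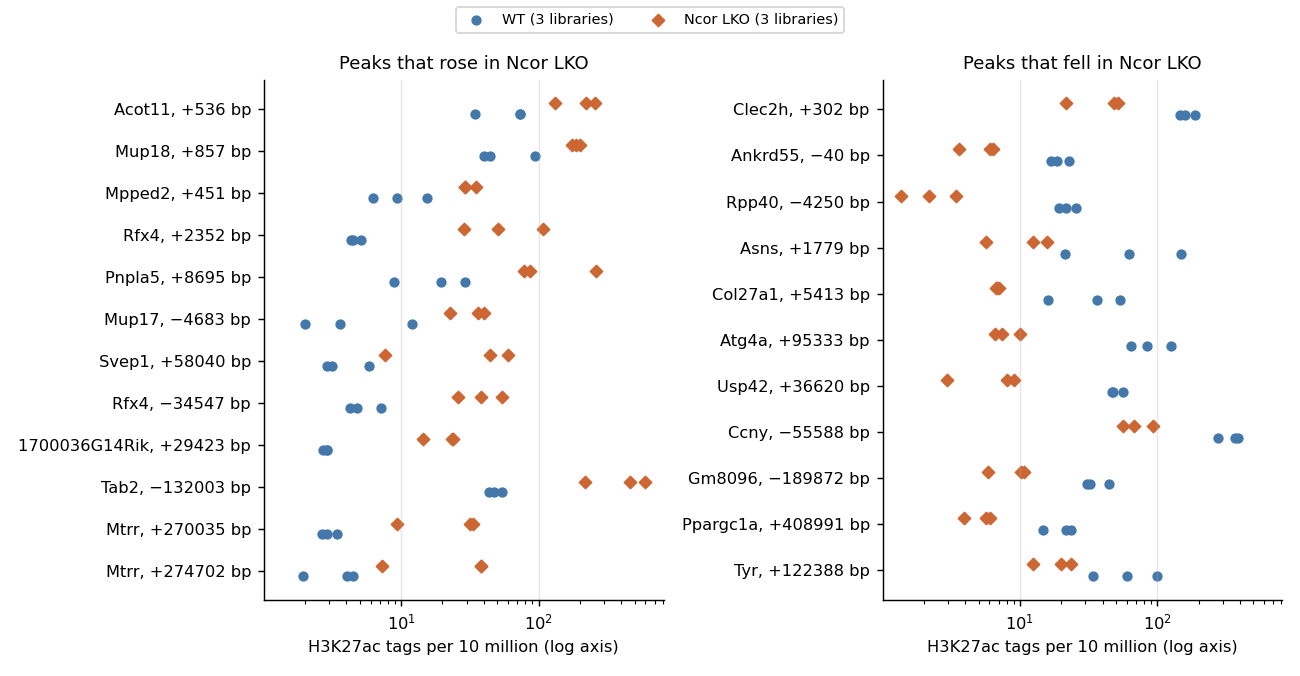
H3K27ac level in normalized tags (x axis, log scale) in each WT (circles) and Ncor LKO (diamonds) library at up to 3 peaks with the largest gain (left) and loss (right) in each distance class, labelled by nearest gene and distance from its TSS. The groups do not overlap at any peak, as the selection required, and at Svep1 and both Mtrr peaks 1 LKO library lies well below the other two.

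At *Pdk4*, the kinase that spares glucose by shutting off pyruvate dehydrogenase, the called gains away from the promoter were larger than the gain at it. The promoter peak, chr6:5443797-5449023, held 204, 227 and 168 normalized tags in WT and 331, 316 and 294 in LKO (log2 fold change 0.65 ± 0.13, adjusted p = 0.0236), and the call was lost without WT 1 (adjusted p = 0.0819), WT 2 (adjusted p = 0.0543) or WT 3 (adjusted p = 0.092). The peak in intron 10, chr6:5434569-5437767, was weaker in WT with 30.7, 31.2 and 28.4 tags and reached 82.1, 120.3 and 86.5 in LKO (log2 fold change 1.68 ± 0.18, adjusted p = 0.00277), a call that held without any 1 library. Its stretch printed above carries 1 half-site. A peak 12980 bp upstream held 80.3, 95.9 and 75.6 tags in WT and 113, 125 and 115 in LKO and did not pass the test (adjusted p = 0.0862). Within 150 kb of the *Pdk4* promoter peak, 5 of 10 peaks rose and 0 fell. The other gains lay 47.2, 25.4 and 22.2 kb from the promoter peak, on the side of intron 10. Their log2 fold changes were 1.42, 1.35 and 1.29.

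The *Cyp4a* cluster on chromosome 4, which encodes fatty acid omega-hydroxylases, held the run of gains with the most peaks. Between 115159640 and 115276280, 15 peaks that rose followed each other within 20000 bp, with a median log2 fold change of 1.40 and a range of 0.68 to 2.16. The peak at the *Cyp4a14* promoter, chr4:115164824-115173024, held 106, 195 and 242 normalized tags in WT and 448, 452 and 353 in LKO (log2 fold change 1.21 ± 0.24, adjusted p = 0.0267). The WT libraries differed from each other by more than the LKO libraries did, and the call was lost without WT 2 (adjusted p = 0.0993) or LKO 1 (adjusted p = 0.0609). Summed over the peaks within 10000 bp of each gene, *Cyp4a10* rose from 292, 352 and 314 to 718, 776 and 802 tags (log2 fold change 1.26 ± 0.10, adjusted p = 1.48e-04) and *Cyp4a31* from 186, 208 and 218 to 444, 526 and 502 (1.27 ± 0.10, adjusted p = 1.49e-04). At the edge of the same cluster *Cyp4a12a*, the form that is higher in males, fell from 43.2, 33.6 and 40.9 to 14.7, 19 and 10.6 tags (-1.41 ± 0.21, adjusted p = 0.00544), and its neighbour *Cyp4a12b* from 30.2, 23.7 and 20.8 to 4.97, 7.81 and 10.2. The *Cyp4a* genes are near-identical copies that can share reads, so the split between them is uncertain.

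**Figure D3:**
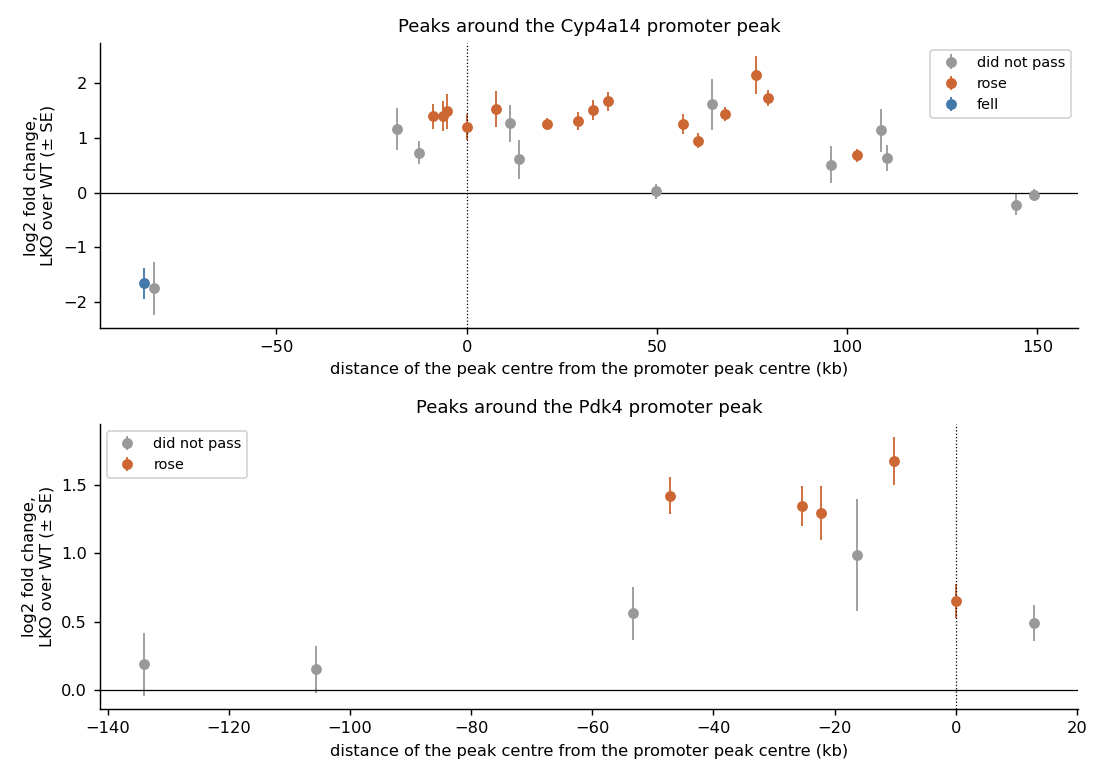
Log2 fold change (y axis, Ncor LKO against WT) of each H3K27ac peak within 150 kb of the Pdk4 and Cyp4a14 promoter peaks, by distance from that peak in kb (x axis). Peaks that passed the test are coloured: 5 of 10 rose around Pdk4, and 15 of 28 rose and 1 fell around Cyp4a14.

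Many of the called peaks lay in runs along the chromosome. When called peaks of 1 direction within 20000 bp were joined, the 1594 gains formed 1068 loci, of which 779 were single peaks and 117 had 3 or more peaks and held 471 of the gains. The 551 losses formed 418 loci, 322 of them single, and 27 had 3 or more peaks and held 91 of the losses. The runs with the most peaks after *Cyp4a* lay over *Dhrs9*, a retinol and steroid dehydrogenase gene, with 11 peaks, over *Asap2* and *Itgb1bp1* with 10, upstream of *Tbl1xr1* with 9 and over the Mup2 and Mup15 genes with 9. Runs of 8 peaks lay at *Ehhadh* and *Map3k13*, at *Mup17* and at *Dhrs3*, and runs of 7 at *Tet2*, at Mup19 and *Mup5*, and at *Zdhhc13* and *E2f8*. The run of losses with the most peaks had 5 peaks, all in intron 2 of *Spsb4*, a ubiquitin ligase adaptor gene.

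The genes of these runs were singled out after their values were seen. At *Dhrs9*, 11 of its 13 peaks rose, among them one in intron 1, 5958 bp from the TSS. That peak held 98.3, 101 and 64.4 normalized tags in WT and 368, 346 and 274 in LKO (log2 fold change 1.91 ± 0.18, adjusted p = 0.00204). *Tbl1xr1*, which encodes the TBLR1 subunit of the NCOR complex itself, gained the mark at 16 of its 33 peaks. Its promoter peak rose from 933, 943 and 829 to 1379, 1726 and 1494 tags (log2 fold change 0.77 ± 0.11, adjusted p = 0.00676) and a peak 116148 bp upstream from 269, 281 and 269 to 549, 943 and 709 (1.42 ± 0.17, adjusted p = 0.00386). LKO 2 was the highest library at both. *Slc4a4*, the sodium bicarbonate cotransporter gene, gained at 13 of 24 peaks, from the promoter at 177, 203 and 186 tags in WT and 342, 295 and 272 in LKO to intron 6. *Prlr*, the prolactin receptor gene, gained at 8 of 21, and a peak in intron 1 rose from 99.6, 93 and 127 to 362, 354 and 249.6 tags (log2 fold change 1.59 ± 0.17, adjusted p = 0.00277). Upstream of *Tet2*, a DNA demethylase gene, 7 of 17 peaks rose.

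The losses at *Spsb4* covered 5 of its 7 peaks. The one with the most tags, 51551 bp from the TSS, held 609.7, 579 and 593 normalized tags in WT and 340.3, 425 and 334 in LKO (log2 fold change -0.70 ± 0.11, adjusted p = 0.0112), and its neighbour at 36432 bp 301, 323 and 299 and 97.9, 175 and 150.3 (-1.13 ± 0.18, adjusted p = 0.0112). All 3 LKO libraries lay below WT at both, with LKO 1 the lowest at the second. At *Pcdh20*, a protocadherin gene, 5 of 6 peaks fell, on both sides of the gene. The peak at the end of the gene held 134, 137 and 296 tags in WT, where WT 3 was the highest, and 40.9, 43.2 and 51.6 in LKO (log2 fold change -2.06 ± 0.29, adjusted p = 0.0066).

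Summed over all peaks within 10000 bp of a gene's TSS, 257 of 14549 gene loci rose (1.77%) and 139 fell (0.955%), with a median over all loci of -0.05 on the log2 scale. The counts ranged from 103 to 395 for gains and 53 to 233 for losses when 1 library was left out, lowest without WT 2 in both directions, highest without LKO 2 for gains and without LKO 1 for losses. Without LKO 1 the losses outnumbered the gains, 233 against 196. The largest gains by the rule after *Rfx4* were at *Mup17*, *Pnpla5*, the noncoding RNA gene *9030619P08Rik* and *Mup5*. The locus of *9030619P08Rik* was the most even, with 131, 119 and 125 normalized tags in WT and 540.0, 574 and 514 in LKO (log2 fold change 2.12 ± 0.09, adjusted p = 1.12e-06). *Mup17* held 145, 75.5 and 39.4 tags in WT and 415, 361 and 402 in LKO (2.19 ± 0.33, adjusted p = 0.00527), and *Mup5* held 136, 117 and 58.6 and 379, 425 and 468. Across the family, which carries pheromones in urine and consists of near-identical copies, 54 of 139 peaks rose and 1 fell, against 2.32% and 0.801% of all peaks. The largest losses were at *Asns*, *Mir455*, *Pcdh20*, *Clec2h* and *Ankrd55*. *Mir455*, a microRNA gene inside *Col27a1*, fell from 389.9, 323 and 254 to 63.5, 81.3 and 60.7 tags (-2.23 ± 0.17, adjusted p = 1.48e-04). At the *Asns* locus the call was lost without WT 2 (adjusted p = 0.0531), LKO 1 (adjusted p = 0.103) or LKO 3 (adjusted p = 0.109), and also with TMM scaling (adjusted p = 0.0949) or peaks within 50000 bp (adjusted p = 0.0561). The *Clec2h* locus lost its call with peaks within 50000 bp (adjusted p = 0.327), and the *Pnpla5* locus without WT 2 (adjusted p = 0.0531).

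Genes that PPARα is known to induce were described in 4 lists. In the list of omega and microsomal oxidation 4 of 7 loci rose, all of them *Cyp4a* genes, and 2 fell, *Cyp4a12a* and *Cyp4a12b*. In peroxisomal oxidation 1 of 13 rose and 0 fell, and in mitochondrial oxidation and ketogenesis 0 of 17 passed, with 5 at an unadjusted p below 0.05 and 2 in DESeq2. In the list of signals and fuel switching 3 of 16 rose and 0 fell. Over all gene loci 1.77% rose and 0.955% fell. Of these 14549 loci, 2058 had an unadjusted p below 0.05, and DESeq2 called 606 higher and 243 lower. The medians of the 4 lists were 0.68, 0.11, 0.04 and 0.10 on the log2 scale. *Ehhadh*, the peroxisomal bifunctional enzyme, rose from 637, 615 and 663 to 1197, 1269.8 and 1045 normalized tags (log2 fold change 0.87 ± 0.10, adjusted p = 0.00129). *Vnn1*, the pantetheinase vanin-1, rose from 185, 169 and 176 to 386, 339 and 339.6 (1.01 ± 0.10, adjusted p = 4.12e-04). The fatty acid transporter *Cd36* rose from 255, 257 and 277 to 381, 350.2 and 469 (0.60 ± 0.11, adjusted p = 0.0168), and its call was lost without WT 1 (adjusted p = 0.063), WT 2 (adjusted p = 0.087) or LKO 3 (adjusted p = 0.0502), and also with peaks within 1000 bp (adjusted p = 0.684) or 50000 bp (adjusted p = 0.0637). The call of the *Cyp4a14* locus was lost without LKO 1 (adjusted p = 0.0582), and that of the *Pdk4* locus without WT 3 (adjusted p = 0.0513).

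Of the other metabolic lists, each held few called loci, against 1.77% of all loci higher and 0.955% lower. In lipogenesis by LXR and SREBP1 1 of 22 loci rose, that of *Elovl5*, a fatty acid elongase, from 1023, 1073 and 1151 to 1566, 1684 and 1358 tags (0.50 ± 0.10, adjusted p = 0.0229). Without LKO 1 the count of this list was 0, and with TMM scaling it was 4. *Scd1*, the stearoyl-CoA desaturase, held 207, 135 and 293 tags in WT and 546, 376 and 305 in LKO and did not pass the test (0.95 ± 0.25, adjusted p = 0.0799). In cholesterol synthesis 1 of 15 rose, *Fdft1* (squalene synthase), and in bile acid genes 1 of 12, *Abcb11*, the bile salt export pump, from 377, 384 and 367 to 627, 549 and 534 tags (0.60 ± 0.09, adjusted p = 0.00584). Of the thyroid hormone receptor targets 0 of 11 passed and of glucose metabolism 0 of 15, with 2 and 3 at an unadjusted p below 0.05 and 1 each in DESeq2. Among all 14549 loci, 2058 had such an unadjusted p, and DESeq2 called 606 higher and 243 lower. In the circadian clock list 3 of 18 rose, namely *Nfil3*, *Arntl* (BMAL1) and *Nr1d2* (REV-ERBβ). *Nfil3* held 1334, 1541 and 1158 tags in WT and 1913, 2212 and 2018 in LKO (0.61 ± 0.11, adjusted p = 0.015). Without LKO 1 the counts were 0 of 15 for cholesterol synthesis, 1 of 12 for bile acids and 3 of 18 for the clock. Single libraries decided several of these calls. That at *Elovl5* was lost without WT 1 (adjusted p = 0.0955), WT 2 (adjusted p = 0.0979) or LKO 1 (adjusted p = 0.055), and that at *Fdft1* without WT 1 (adjusted p = 0.0579), WT 2 (adjusted p = 0.174), WT 3 (adjusted p = 0.0995), LKO 1 (adjusted p = 0.055) or LKO 3 (adjusted p = 0.152). With TMM scaling the calls at *Fdft1* (adjusted p = 0.0896) and *Arntl* (adjusted p = 0.0504) were lost too. Among the clock genes, *Nfil3* lost its call without WT 1 (adjusted p = 0.0515), WT 3 (adjusted p = 0.0527) or LKO 3 (adjusted p = 0.0532), *Arntl* without WT 1 (adjusted p = 0.0766), WT 2 (adjusted p = 0.0847) or WT 3 (adjusted p = 0.125), and *Nr1d2* without WT 1 (adjusted p = 0.145), WT 2 (adjusted p = 0.165), WT 3 (adjusted p = 0.139) or LKO 3 (adjusted p = 0.082).

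Genes whose level in liver differs between the sexes moved in both directions. Of 23 loci of male-biased genes, 6 fell and 1 rose, and of 24 female-biased loci, 4 rose and 1 fell, against 1.77% and 0.955% of all gene loci. The *Mup* loci that rose were not members of the male-biased list, so these counts do not cover them. In that family 54 of 139 peaks rose and 1 fell, as given above. The list medians were -0.22 and 0.13. The glutathione transferase *Gstp2* fell from 439, 484 and 539 to 247, 238 and 273 normalized tags (log2 fold change -0.95 ± 0.10, adjusted p = 0.00115), and its near-identical neighbour *Gstp1* from 948, 1014 and 1007 to 671, 549 and 643. *Slco1a1*, a steroid and bile acid uptake transporter, fell from 1334, 1370.1 and 1189 to 909.9, 999.7 and 884 (-0.48 ± 0.09, adjusted p = 0.0214). Losses at the complement genes *C6* and *C8b* and at *Cyp4a12a* made up the rest. *Cyp4a12a*, and *Cyp4a10* and *Cyp4a14* below, were also counted in the omega oxidation list. *Elovl3*, a fatty acid elongase, went the other way and rose from 311, 347 and 245 to 696, 573 and 744 (1.16 ± 0.14, adjusted p = 0.00157). Among the female-biased genes *Cyp4a10*, *Cyp4a14*, *Cyp2b10* and *Sult3a1* rose and *Tox* fell, and the *Cyp2b10* locus held 243, 215 and 119 tags in WT and 434, 392 and 540.5 in LKO (1.25 ± 0.21, adjusted p = 0.0112). The *Cyp2b10* call was lost without LKO 1 (adjusted p = 0.0537) or LKO 3 (adjusted p = 0.0543), and the *Tox* call without WT 2 (adjusted p = 0.0636) and with TMM scaling (adjusted p = 0.0553). With TMM scaling 3 male-biased loci fell and 1 rose, and 3 female-biased loci rose and 0 fell. Without LKO 1, 6 male-biased loci fell and 2 rose, and 1 female-biased locus rose and 1 fell. Within the *Ncor* line, Y-linked and *Xist* tags did not separate WT from LKO, with summed levels over the sex-chromosome genes of 297 to 364 and 306 to 331 normalized tags.

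In the remaining lists, 3 of 18 loci of xenobiotic metabolism rose (*Cyp2c55*, *Cyp2b10* and *Cyp2c29*), 1 of 21 of the acute phase (*Orm2*) and 1 of 8 of fetal liver and proliferation (*Cdkn1a*, the cell cycle inhibitor p21). For this paragraph too, the share over all gene loci was 1.77% higher and 0.955% lower. Counts of 1 or 2 in such lists cannot be set apart from that background. *Cyp2c55* held 179, 155 and 170.4 normalized tags in WT and 288, 295 and 280.0 in LKO (log2 fold change 0.77 ± 0.09, adjusted p = 0.00178). Of 27 nuclear receptor loci, 2 rose, *Ppard* and *Nr1d2*. Of the 6 corepressor genes *Tbl1xr1* rose in edgeR's test. Of the others reported here none passed it, with adjusted p of 0.209 for *Tbl1x*, 0.611 for *Hdac3*, 0.649 for *Gps2* and 0.667 for *Ncor1*, while *Tbl1x* passed in DESeq2 (adjusted p = 0.0052). Some calls in these lists rested on single libraries: *Cyp2c29* lost its call without WT 1 (adjusted p = 0.0855), WT 2 (adjusted p = 0.0966), WT 3 (adjusted p = 0.149), LKO 2 (adjusted p = 0.0526) or LKO 3 (adjusted p = 0.104), *Orm2* without WT 1 (adjusted p = 0.0553), WT 2 (adjusted p = 0.135), WT 3 (adjusted p = 0.123) or LKO 3 (adjusted p = 0.129), and *Ppard* without WT 1 (adjusted p = 0.209), WT 2 (adjusted p = 0.144), WT 3 (adjusted p = 0.127), LKO 1 (adjusted p = 0.0547) or LKO 3 (adjusted p = 0.113). With TMM scaling the calls at *Cyp2c29* (adjusted p = 0.0714) and *Orm2* (adjusted p = 0.11) were lost too, and that at *Orm2* also with peaks within 50000 bp (adjusted p = 0.0516).

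**Figure D4:**
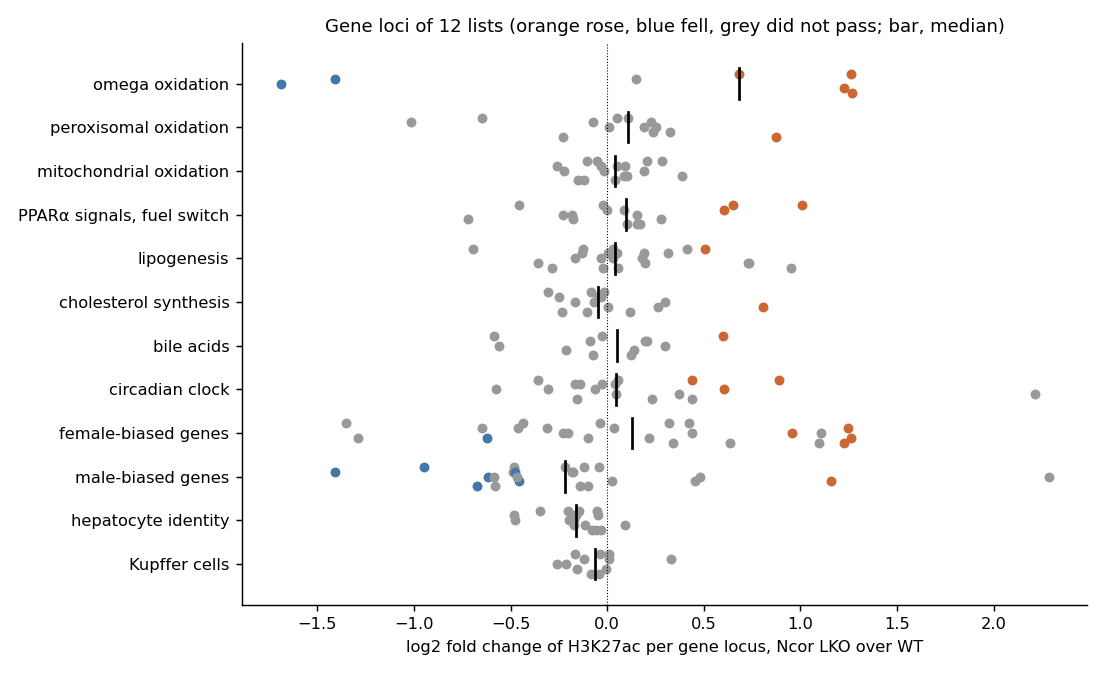
Log2 fold change of H3K27ac (x axis, Ncor LKO against WT) of each gene locus in the gene lists (rows), with loci that passed the test coloured and the list median marked. Called gains were 4 of 7 in the omega oxidation list, all at Cyp4a genes, and called losses 6 of 23 in the male-biased list. Over all loci 1.77% rose and 0.955% fell. Lists share members, and were chosen with earlier results of these data known.

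Peaks that changed in either direction overlapped sites of the corepressor and of PPARα at a higher share than the other peaks. An NCOR peak, called in at least 2 of 3 WT libraries of the *Gps2* line, overlapped 38.1% of all tested H3K27ac peaks, 75.5% of those that rose and 69.3% of those that fell. For GPS2 the shares were 39.6%, 76.3% and 68.8%, and for PPARα 51.4%, 90.7% and 87.5%. Strong H3K27ac peaks overlap binding sites more often, and the difference was smaller among peaks of 200 to 1000 tags, at 65.2%, 92.3% and 83% for NCOR. Of the peaks that rose, 186 had no H3K27ac peak in any WT library file and 1 in each LKO library file, out of 484 such peaks in all. Of those that fell, 66 of 351 such peaks had the opposite pattern.

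The PPARα peaks that edgeR called inside changed H3K27ac peaks had the direction of the mark. Of 86168 PPARα peaks in the table of the same 2 groups, again 3 WT and 3 LKO libraries, 130 (0.151%) were higher and 39 (0.0453%) lower in *Ncor* LKO. Inside H3K27ac peaks that rose lay 3084 of them, of which 50 rose and 0 fell in edgeR's test (632 and 3 at an unadjusted p below 0.05, and 188 and 2 in DESeq2), with a median log2 fold change of 0.50 and 9.57% below 0. Inside H3K27ac peaks that fell lay 971, of which 0 rose and 12 fell (2 and 163 at an unadjusted p below 0.05, and 0 and 50 in DESeq2), with a median of -0.43 and 83.2% below 0. Over the whole table the median was 0.10, with 39.4% below 0. At *Atg4a*, where the mark was lost, the PPARα peak with the most tags held 43.2, 29.9 and 9.03 normalized tags in WT and 2.28, 3.73 and 5.47 in LKO. Where the mark rose, such peaks changed by 0.21 ± 0.45 at the *Cyp4a14* promoter, 0.23 ± 0.42 at the *Pdk4* promoter and 0.28 ± 0.40 at *Tab2*. They changed by 1.39 ± 0.52 at *Rfx4* intron 1 and 1.40 ± 0.47 at *Pdk4* intron 10, and none of these passed the test. A further PPARα peak inside the *Tab2* H3K27ac peak did (2.37, adjusted p = 0.0205). The share of tags in PPARα peaks was 8.96% in WT 3 against 18.6% and 19.3% in the other WT libraries and 14.7% to 21.1% in LKO, and without WT 3 the counts over the table were 296 higher and 539 lower. They were 63 and 13 without WT 1, 5 and 4 without WT 2, 37 and 3 without LKO 1, 46 and 14 without LKO 2 and 3 and 2 without LKO 3, so single sites are given here as values.

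GPS2, a subunit of the same complex, had a negative median change by total-tag scaling. Of 56278 GPS2 peaks, 0 (0%) were higher and 19 (0.0338%) lower in edgeR's test, while 19323 had an unadjusted p below 0.05 and DESeq2 called 388 higher and 62 lower. The median log2 fold change was -1.12 over all GPS2 peaks, -1.22 inside H3K27ac peaks that rose and -1.39 inside those that fell. With TMM scaling, which sets the bulk of peaks to no change, the median over all was -0.04. The share of tags in GPS2 peaks was 8.23% and 7.82% in WT 1 and WT 2 but 3.07% in WT 3, and 2.45% to 3.15% in LKO. Without WT 3, 33248 GPS2 peaks were lower and 224 higher, and without WT 1 or WT 2 or any LKO library 0 passed in either direction. At the *Tab2* site, where the mark rose, GPS2 held 109, 97.3 and 47.2 normalized tags in WT and 21.7, 25.4 and 25.5 in LKO (adjusted p = 0.0775). The GPS2 change was smaller at *Rfx4* intron 1 (-0.26 ± 0.64, adjusted p = 0.754) and *Pdk4* intron 10 (-0.47 ± 0.61, adjusted p = 0.536), where the mark also rose.

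**Figure D5:**
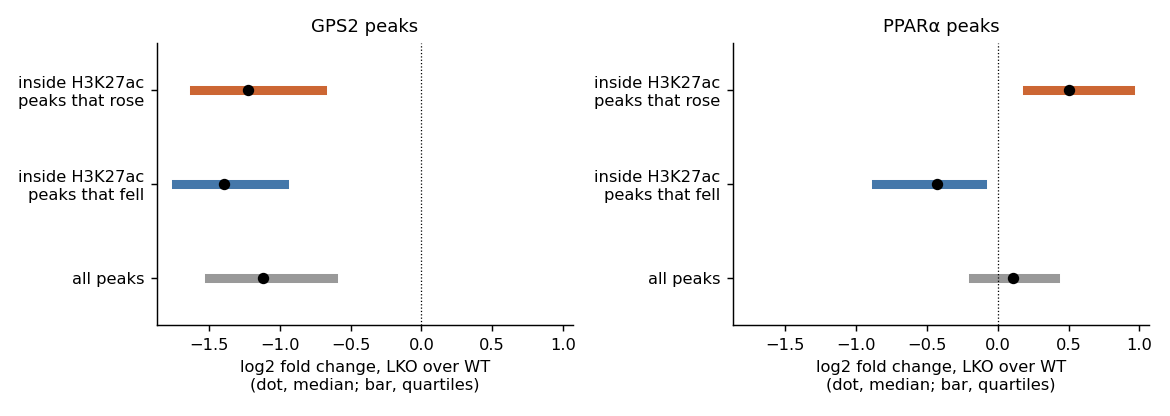
Distribution of the log2 fold change (x axis, Ncor LKO against WT) of PPARα and GPS2 peaks lying inside H3K27ac peaks that rose, that fell, and over the whole table (rows). The medians are 0.50, -0.43 and 0.10 for PPARα and -1.22, -1.39 and -1.12 for GPS2.

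By sequence, 1162 of 3052 windows of 201 bases at PPARα peak centres inside risen H3K27ac peaks held the half-site AGGTCA on either strand (38.1%). The share was 29.2% of 949 windows inside fallen peaks, 26.3% of 63049 inside peaks that did not pass the test and 28.1% of all 86059. The repeat AGGTCANAGGTCA with at most 2 mismatches, which can overlap the half-site, was found in 13.3%, 12.3%, 10.2% and 11.2% of the same windows. These shares are descriptions, and windows of neighbouring peaks can share sequence.

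In the *Smrt* line few peaks of any kind passed the test. Of the 68818 peaks, 1 was higher and 1 lower in *Smrt* LKO against its own WT (0.00145% each). Of the 1386 risen and 474 fallen peaks with a mean of at least 50 tags, 0 were called there by edgeR, a count that cannot be set apart from that background. An unadjusted p below 0.05 was seen at 194 (14%) and 72 (15.2%) of them, against 6.38% of all 43124 peaks of that level, with median log2 fold changes of 0.06 and 0.01. Tested directly, the *Ncor* effect exceeded the *Smrt* effect at 227 of 68818 peaks (0.33%) and lay below it at 66 (0.0959%). Of the gene loci, 52 (0.357%) lay above and 15 (0.103%) below. The counts over peaks depended on single libraries of both lines. Without *Ncor* libraries WT 1, WT 2 and WT 3 in turn, the counts above were 152, 39 and 88 and those below 58, 12 and 23, and without LKO 1, LKO 2 and LKO 3 they were 165, 264 and 108 above and 33, 97 and 32 below. Without *Smrt* libraries WT 1, WT 2 and WT 3 they were 69, 256 and 308 above and 19, 75 and 64 below, and without LKO 1, LKO 2 and LKO 3 they were 74, 246 and 61 above and 23, 70 and 22 below. At the *Pdk4* intron 10 peak the *Smrt* WT libraries held 77.6, 82.4 and 52.3 normalized tags and the *Smrt* LKO libraries 61.1, 83.4 and 86.7, and the difference between the effects was 1.55 ± 0.28 on the log2 scale (adjusted p = 0.0319). At the *Cyp4a14* promoter they held 489, 583 and 468 and 469.6, 622 and 622, and the difference of 1.05 ± 0.31 did not pass the test (adjusted p = 0.175).

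At both sites the *Smrt* WT libraries lay nearer to *Ncor* LKO than to *Ncor* WT. The same was seen at *Rfx4*, with 204, 153 and 118 normalized tags in *Smrt* WT, and at *Atg4a* in the other direction, with 6.71, 7.36 and 7.14. Among the fallen peaks of at least 50 tags, the *Smrt* WT mean was nearer to the *Ncor* LKO mean than to the *Ncor* WT mean at 339 of 474 (71.5%), against 39.1% of the peaks below 0 that did not pass the test. Among the risen peaks it was nearer at 877 of 1386 (63.3%), against 61.7% of the peaks above 0 that did not pass. *Svep1* was an exception, with 0.876, 1.47 and 1.71 tags in *Smrt* WT. The *Ncor* and *Smrt* lines also differ in their Y-linked and *Xist* tags, as given above, so line and sex cannot be told apart in any comparison between them.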

How the data were processed

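H3K27ac ChIP-seq was analysed in 3 WT and 3 LKO liver libraries of the *Ncor* line, with the 6 *Smrt*-line libraries and the GPS2, PPARα and NCOR data for comparison. The authors aligned reads to mm9 with Bowtie (Bowtie2 in the submitters' processing notes), called peaks with HOMER and deposited raw tag counts per merged peak with each library's total of uniquely mapped tags, plus peak lists per library, of which positions were used. Sources disagree on the crosslinker (formaldehyde alone or after disuccinimidyl glutarate). Counts of peaks with at least 1 tag were tested by edgeR 4.0.16 (R 4.3.3; quasi-likelihood fit, quasi-likelihood test, total tags as library size, Benjamini-Hochberg adjustment, threshold 0.05). The study used edgeR on the tag counts, with no further settings given. Fold changes are log2 with approximate SE, and levels are tags per 10000000 total tags. Total-tag scaling leaves differences in signal over background in the values. Counting error depends on the tags in a peak and is larger at peaks of few tags. The median was 514 tags in promoter peaks and 56.5 to 88.7 in the more distant classes, at 28008947 to 34375554 tags in peaks per library. Gene loci summed peaks within 10000 bp of the nearest TSS in the deposited annotation. The *Ncor* effect minus the *Smrt* effect was an interaction over 12 libraries. Shares of tags were compared by an exact permutation test.

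Peaks were named by rule: among called peaks with a mean of at least 50 tags, the 3 largest changes in each direction and distance class, those within 20000 bp of *Pdk4* or *Cyp4a14*, the 5 largest gene loci of at least 100 tags in each direction and at most 4 members per list. Some named items are not reported here. Members and lists were chosen with earlier results of these data known. Alternatives were TMM scaling, DESeq2 1.42.0, a replicate block, a filter on low counts, other distances, a fit over all 12 libraries, autosomes only and leaving out each library. The test was checked on simulated counts. Sequences came from the NCBIM37 genome (mm9). Figures were drawn with matplotlib 3.10.9.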

Additional observations from a re-analysis of the deposited data

Results flagged for a closer look

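The results listed here are differences between the *Ncor* effect and the *Smrt* effect that passed the test of the difference itself in the model over 12 libraries. The lines differ in their Y-linked and *Xist* tags, so line and sex cannot be told apart in them. The *Ncor* effect lay above the *Smrt* effect at 227 peaks and below it at 66. Among the peaks described in the report it lay above at *Rfx4* (difference in log2 fold change 3.64, adjusted p = 0.0177), *Mpped2* (2.31, 0.0191), *Acot11* (2.30, 0.0291), *Mup18* (1.85, 0.0378) and intron 10 of *Pdk4* (1.55, 0.0319). It lay below at *Atg4a* (-3.48, 0.00374), *Rpp40* (-2.97, 0.0498), *Gm8096* (-2.75, 0.0201), *Ppargc1a* (-2.51, 0.0265), *Ccny* (-2.48, 0.0122) and *Clec2h* (-2.34, 0.0239). At *Atg4a*, *Rpp40*, *Gm8096* and *Ccny* each *Smrt* WT library lay below the *Ncor* LKO mean of 8.01, 2.31, 8.92 and 72.1 normalized tags. At *Rfx4* each lay above that mean of 62.2. At *Clec2h* the *Smrt* WT libraries held 40, 43.9 and 32 tags, against *Ncor* means of 163.7 in WT and 40.7 in LKO. At intron 10 of *Pdk4* they held 77.6, 82.4 and 52.3, against 30.1 and 96.3, and at *Mpped2* 18.7, 20.9 and 22.6, against 10.3 and 31.1. At all these peaks a difference in effect cannot be told apart from a difference in starting level.

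Among the gene loci the difference was 3.64 at *Rfx4*, 2.48 at *Mup17*, 2.44 at *Mup5* and 2.34 at *9030619P08Rik*, 1.80 at *Scd1*, 1.36 at *Cyp4a31*, 1.27 at *Cyp4a10*, 0.93 at *Ehhadh*, 0.86 at *Cyp2c55* and 0.72 at *Nr1d2*. It was negative at *Mir455* (-2.40), *Clec2h* (-2.35), *Gstp2* (-0.69) and *Gstp1* (-0.60). At *Scd1* neither effect passed alone: the *Ncor* effect was 0.95 ± 0.25 (adjusted p = 0.0799) and the *Smrt* effect -0.85 ± 0.25 (adjusted p = 0.751).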

How the results depend on the processing

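More H3K27ac peaks rose than fell under every alternative, while the number of calls varied. DESeq2 called 2476 peaks higher and 919 lower, 606 gene loci higher and 243 lower, and differences between the *Ncor* and *Smrt* effects at 864 and 372 peaks. TMM scaling gave 75 lower loci, 67 of them shared with the 139 of the main fit, and 42 peaks below the *Smrt* effect. On the log2 scale it moved the median of all H3K27ac peaks from -0.00341 to 0.00735. The median of all gene loci moved from -0.0465 to -0.0034. Loci of peaks within 1000 bp gave 89 gains and 101 losses. With promoters taken as 3000 bp, 7.34% of the gains and 15.6% of the losses were promoter peaks. The low-count filter, the autosomes alone, the fit over all 12 libraries and the use of peak centres changed none of the counts they were run on by more than 1.5 times. The cause of these differences was not tested.

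Leaving out 1 library gave 296 to 1817 gains and 101 to 743 losses over peaks, 103 to 395 and 53 to 233 over loci, and 39 to 308 and 12 to 97 for the difference from the *Smrt* effect. Promoters then held 6.59% to 21.5% of the losses. The change in the share of tags 1000 to 10000 bp from a TSS ran from -0.031 to 0.28 percentage points and was negative without LKO 1 (-0.031). Of the 64 named peaks and loci reported here that were called, 31 lost the call under at least 1 alternative, 30 of them when a library was left out.

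Binding moved the most. Inside risen H3K27ac peaks GPS2 was higher at 43 and lower at 58 peaks with TMM (median -0.11) and at 21 and 12 in DESeq2 (median -0.069), and leaving out 1 library gave 0 to 8 and 0 to 1655. Inside fallen peaks it was higher at 6 and lower at 13 with TMM (median -0.29) and higher at 3 in DESeq2 (median -0.25), and the ranges were 0 to 2 and 0 to 506. The GPS2 medians without 1 library ran from -1.59 to -0.80 inside risen and from -1.75 to -1.14 inside fallen peaks. For PPARα inside risen peaks, TMM gave 414 higher and 3 lower and DESeq2 188 and 2, against ranges of 3 to 108 and 0 to 3 without 1 library. Inside fallen peaks TMM gave 2 higher and 128 lower and DESeq2 50 lower, with a range of 1 to 128 lower. The PPARα medians ran from 0.20 to 0.70 and from -0.72 to -0.21.

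WT and LKO libraries share replicate numbers 1 to 3. The deviations of same-numbered libraries correlated at -0.08, -0.08 and -0.20 (over 43124 peaks), and no library correlated best with its own number, so the numbers were not taken as pairs. With a replicate block, 870 peaks rose and 273 fell, and the *Ncor* effect was above the *Smrt* effect at 48 and below it at 21. Under the block GPS2 was higher at 4 and lower at 677 peaks inside risen H3K27ac peaks and at 1 and 216 inside fallen ones, and 0 PPARα peaks passed in either.

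Of the named loci reported here, 4 changed sign under an alternative, and none of the 4 passed the test in any of these fits. Their log2 fold changes without 1 library ran from -0.31 to 0.049 at *Eif2s3y*, from -0.30 to 0.0076 at *Xist* and from -0.15 to 0.027 at *Uty*. The sign changed at *Ccr2* (0.034) with peaks within 50000 bp. It also changed, to 0.049 and 0.00089 at *Eif2s3y* without WT 1 and WT 2, 0.0054 and 0.0076 at *Xist* without WT 3 and LKO 2, and 0.0066 and 0.027 at *Uty* without WT 2 and LKO 3.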
